A study of Mus musculus with 4 samples.

Results

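Germ cells of the fetal mouse ovary pass within a few days from a state that still uses the core pluripotency genes to the first steps of meiosis. The genes described here are 8 of the 19321 gene symbols in the table, Pou5f1, Sox2, Nanog, Utf1, Zfp42, Tdgf1, Lin28a and Sall4, chosen by name as core pluripotency factors. They were followed in the germ cells and in the somatic cells of XX gonads of C57BL/6 mouse embryos at 4 stages, 1 day apart from E11.5 to E14.5, with no transgene, mutation or treatment named in the labels. Each stage was 1 library, made from digested gonads with droplet-based single-cell RNA sequencing that counts transcripts from their 3′ ends by unique molecular identifiers (UMIs). How many embryos were pooled is not given in the sources used here. Stage and library therefore cannot be told apart, no test between stages could be made, and all intervals are 95% intervals that cover counting error only.

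Pou5f1 (also called Oct4), Sox2 and Nanog are transcription factors that hold embryonic stem cells in the pluripotent state. Primordial germ cells also express these factors. In the fetal ovary, retinoic acid and BMP signals induce Stra8, a factor needed to enter meiosis. Sycp3, a protein of the synaptonemal complex that holds paired chromosomes together, follows. Sall4 is a zinc finger factor that works with Pou5f1, and Lin28a is an RNA-binding protein that blocks the maturation of let-7 microRNAs. Utf1 is a chromatin-bound protein and Zfp42 (Rex1) a zinc finger protein, both used as markers of the pluripotent state. Tdgf1 (Cripto) is a co-receptor for Nodal signals.

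Germ cells were the cells with a UMI of at least 3 of 6 markers (Dazl, Ddx4, Dnd1, Mael, Dppa5a and Mov10l1), and somatic cells those with fewer than 3 and with globin below 10% of their UMIs. This gave 245, 650, 756 and 2410 germ cells in stage order, or 5.11%, 13.7%, 15.9% and 51.4% of the cells kept, and 4466, 4063, 3967 and 2188 somatic cells. The median germ cell held 31268, 27740, 24830 and 15541 UMIs, and the median somatic cell 13822, 12151, 10471 and 10191. Dppa3, a germ cell gene outside the marker rule, read 836, 761, 616 and 473 CPM in germ cells against 15.4, 11.7, 6.56 and 6.92 CPM in somatic cells, where CPM (counts per 1000000) gives a gene's summed UMIs as a part of the total in the same cells, with no scaling by gene length. The E14.5 library, labelled XX, held 1655 UMIs of 4 Y-linked genes and the other libraries held 0. These UMIs lay in 18% of its germ cells and 22% of its somatic cells, and Xist, which marks the inactive X chromosome, had a UMI in 99.8% of its somatic cells. Of 19208 barcode sequences, 175 occurred in more than 1 library.

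The promoters of members are shown first. RefSeq (GRCm38.p6) held a start site for 7 of the 8 members, all but Sall4. Each line gives the bases just upstream of the start, 5′ to 3′ on the gene's strand, cut so that it ends before the first annotated transcript base. Capitals mark ATGCAAA or its complement TTTGCAT, the first 7 letters of the octamer to which POU factors such as Pou5f1 bind, and ACAATG or CATTGT, a core that SOX factors bind. Both motifs were searched on both strands and were chosen after the sequences had been seen. Nanog lies at chr6:122707239-122707488, Zfp42 on the minus strand at chr8:43307010-43307259, Sox2 at chr3:34649745-34649994, Utf1 at chr7:139943606-139943788 and Pou5f1 at chr17:35505782-35506017.
Nanog: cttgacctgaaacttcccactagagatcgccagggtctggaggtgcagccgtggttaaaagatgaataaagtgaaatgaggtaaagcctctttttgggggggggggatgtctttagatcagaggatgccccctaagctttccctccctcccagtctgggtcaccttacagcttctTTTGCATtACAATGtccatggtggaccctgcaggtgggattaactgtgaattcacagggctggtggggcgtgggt
Zfp42: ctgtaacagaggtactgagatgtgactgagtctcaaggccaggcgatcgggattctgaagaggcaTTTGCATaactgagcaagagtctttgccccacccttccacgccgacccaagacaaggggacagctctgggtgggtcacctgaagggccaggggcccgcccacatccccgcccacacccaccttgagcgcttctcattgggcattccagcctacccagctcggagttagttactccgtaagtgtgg
Sox2: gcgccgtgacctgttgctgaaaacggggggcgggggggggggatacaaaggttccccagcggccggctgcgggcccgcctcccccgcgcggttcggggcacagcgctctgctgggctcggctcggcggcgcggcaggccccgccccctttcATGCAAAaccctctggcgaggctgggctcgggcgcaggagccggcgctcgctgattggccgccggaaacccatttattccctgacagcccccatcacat
Utf1: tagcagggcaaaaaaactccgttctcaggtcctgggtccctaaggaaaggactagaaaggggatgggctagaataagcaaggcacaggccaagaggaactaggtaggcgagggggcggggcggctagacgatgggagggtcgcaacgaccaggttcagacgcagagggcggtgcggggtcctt
Pou5f1: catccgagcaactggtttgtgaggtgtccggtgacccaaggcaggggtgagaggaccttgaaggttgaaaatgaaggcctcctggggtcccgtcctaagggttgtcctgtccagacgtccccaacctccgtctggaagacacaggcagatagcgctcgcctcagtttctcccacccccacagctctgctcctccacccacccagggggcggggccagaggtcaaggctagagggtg
Within 250 bases before to 50 after the start, ATGCAAA was found for Nanog, Sox2 and Zfp42, against 4.63% of the 32851 promoters in the table. The full octamer ATGCAAAT was found only for Zfp42 among the members, against 1.74% of promoters. ACAATG was found for Nanog, Lin28a and a second, downstream start of Pou5f1, against 12.6% of promoters. In Nanog the pair lies with 1 base between the motifs, 75 and 67 bases before the start, and 0.813% of promoters hold both motifs. Utf1 and the upstream start of Pou5f1 hold neither in this window. A match is a description of letters, and no binding was measured here. A link between these motifs and the levels was not tested, and the shares of all promoters are given for scale only.

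Over the 4 stages the members did not move as 1 block in germ cells. Nanog, Utf1 and Zfp42 fell more than 2-fold from E11.5 to E14.5 and Tdgf1 went to 0 UMIs. Sox2, Lin28a and Sall4 ended lower by less than 2-fold in summed UMIs, and Pou5f1 was slightly higher at E14.5 than at E11.5. A gene was called when it had at least 50 UMIs over both libraries, a ratio of at least 2 and an interval of the log2 ratio that left out 0. Between E11.5 and E14.5, 3 of the 7 members that had enough UMIs were called lower and 0 higher, where 8.05% of the 12412 genes tested were called lower and 30.9% higher. The median log2 ratio was -0.94 over these members and 0.45 over all genes tested.

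**Figure D1:**
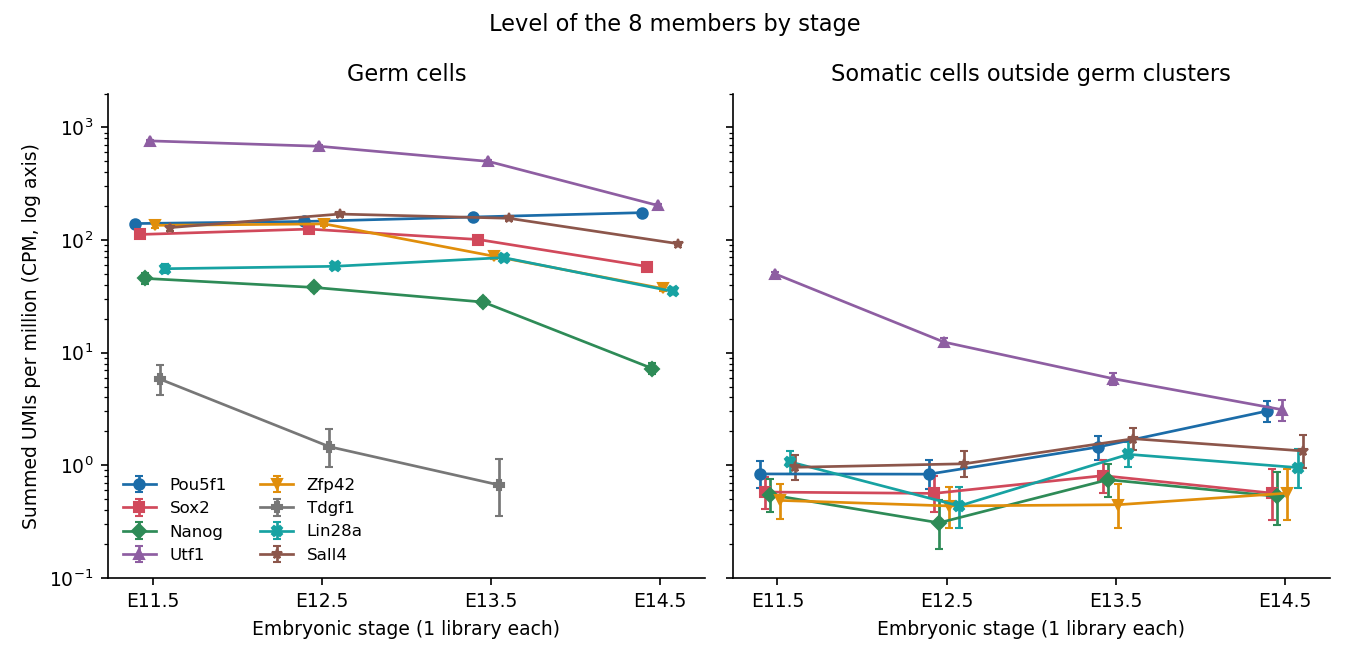
Summed level of each member (CPM, log axis) at the 4 stages in germ cells and in somatic cells outside the germ clusters, with exact Poisson 95% intervals. Pou5f1 stays between 140 and 175 CPM in germ cells while Nanog drops to 7.22, and Utf1 is the member that stands apart in somatic cells at E11.5. Tdgf1 had 0 UMIs in germ cells at E14.5 and is not drawn for somatic cells.

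Of the central trio, Pou5f1 was measured at 140, 146, 160 and 175 CPM in germ cells, with intervals of 132 to 149, 140 to 151, 154 to 166 and 171 to 179. The E11.5 and E12.5 levels overlapped within counting error and the later ones stood above them. Its log2 ratio of E14.5 to E11.5 was 0.32 (0.23 to 0.41), short of the size needed for a call and below the median gene. This direction depended on how cells were weighted: the mean over cells of log2(CPM + 10) was lower at E14.5, with a difference of -0.46. Sox2 stood at 112, 125, 101 and 58.1 CPM, highest at E12.5 and lowest at E14.5, with a log2 ratio of -0.94 (-1.06 to -0.83). That is just short of the 2-fold limit, and on a median-of-ratios scale, which lowers every log2 ratio by 0.16, Sox2 was at -1.10 and 4 members were called. Nanog was at 45.6, 37.9, 28.1 and 7.22 CPM, lower at each stage than at the one before, with intervals that touched at no step. Its log2 ratio was -2.66 (-2.89 to -2.43), of which -1.96 lay between E13.5 and E14.5.

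The marker genes of the pluripotent state fell on different schedules. Utf1 stood at 759, 680, 499 and 203 CPM, a log2 ratio of -1.90 (-1.95 to -1.86), with the single steps -0.16, -0.45 and -1.30. Zfp42 stood at 135, 139, 71.9 and 37.1 CPM, a log2 ratio of -1.86 (-1.98 to -1.75). Zfp42 was level between the first stages, and its later steps were nearly equal, at -0.95 and -0.96, where Utf1 and Nanog had their steepest step at the end. Tdgf1 was rare throughout, with 46, 28, 13 and 0 UMIs, or 5.80, 1.46 and 0.669 CPM at the first 3 stages. With 0 UMIs at E14.5, the upper limit of its log2 ratio of E14.5 to E11.5 was -5.94. With the 0 taken as 3 counts, the ratio itself was -6.30. It had too few UMIs over those libraries to be counted in the call, but from E11.5 to E12.5 it was the only member called lower, with a log2 ratio of -1.99 (-2.72 to -1.28), where 0.939% of genes were.

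Lin28a and Sall4, which act alongside the core factors, changed least after Pou5f1. Lin28a stood at 55.6, 58.4, 69.8 and 35.0 CPM, so its highest level was at E13.5 and it was lower only in the last step, at -0.99 (-1.10 to -0.89). Sall4 stood at 129, 170, 156 and 92.8 CPM, with its highest level at E12.5 and a log2 ratio of E14.5 to E11.5 of -0.47 (-0.57 to -0.37). Neither passed the size rule. As means over cells of log2(CPM + 10), the differences were larger, at -1.08 for Lin28a, -1.26 for Sall4 and -1.59 for Sox2. From E12.5 to E13.5, 0 of the 7 members tested were called lower (1.15% of genes), and from E13.5 to E14.5 only Nanog and Utf1 were (3.99% of genes).

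The axis genes rose in the same cells. Stra8 had 0 UMIs in germ cells at E11.5 and then stood at 1.88, 130 and 913 CPM, and Sycp3 stood at 16.8, 26.3, 42.9 and 331 CPM. All 18 genes of a meiosis list were called higher from E11.5 to E14.5. Over all genes tested, 30.9% were called higher and 8.05% lower, with a median log2 ratio of 0.45. Of 38 other genes of the pluripotency network, 32 had enough UMIs, of which 17 were called lower and 2 higher, with a median log2 ratio of -1.27. The largest fall among them was in Lefty2, a Nodal antagonist, from 14 to 0.147 CPM. The Nodal antagonist Lefty1 went from 10.1 to 1.2 CPM. Klf2, a naive pluripotency factor, went from 117 to 13.8 CPM and Etv5, an ETS factor, from 104 to 15 CPM. Esrrb, an orphan nuclear receptor, went from 20.3 to 5.48 CPM. Sox15 (62.6 to 6.61 CPM), Zscan10 (5.17 to 0.589 CPM) and Nr0b1 (9.7 to 1.13 CPM) fell by a larger ratio than Klf2. In somatic cells Klf2 stood at 51.8, 29.2, 73.5 and 17.1 CPM over the 4 stages. Nr0b1 was higher in somatic cells than in germ cells, at 45.3, 16.6, 12.7 and 14.8 CPM. The part of somatic RNA in its germ cell level was not tested. Tet2, which oxidises methylated DNA, and Dnmt3b, which methylates it, were the 2 called higher, at 3.65 and 7.93 CPM and at 1.64 and 4.27 CPM. Trim71, a target of let-7 like Lin28a, did not pass, at 38.1 and 32.4 CPM.

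In single cells the same picture appeared as fewer members per cell. A random draw of 5000 UMIs was kept from each cell so that depth did not set the share. Pou5f1 then had a UMI in 50.2%, 49.2%, 51.7% and 48.6% of germ cells, with intervals that overlap at all stages. Utf1 went from 98.0% (95.3 to 99.3) to 46.6% (44.6 to 48.6), Zfp42 from 53.1% (46.6 to 59.4) to 14.6% (13.2 to 16.1) and Nanog from 22.0% (17 to 27.8) to 2.74% (2.12 to 3.47). Before thinning, Pou5f1 had a UMI in 97.1% of germ cells at E11.5 and 76.0% at E14.5, where the depth of the cells also differed. The somatic background in thinned cells was 0.717% and 1.74% for Pou5f1 and 0.448% and 0.411% for Nanog at E11.5 and E14.5. Nanog in E14.5 germ cells was thus above that background, but by few cells.

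**Figure D2:**
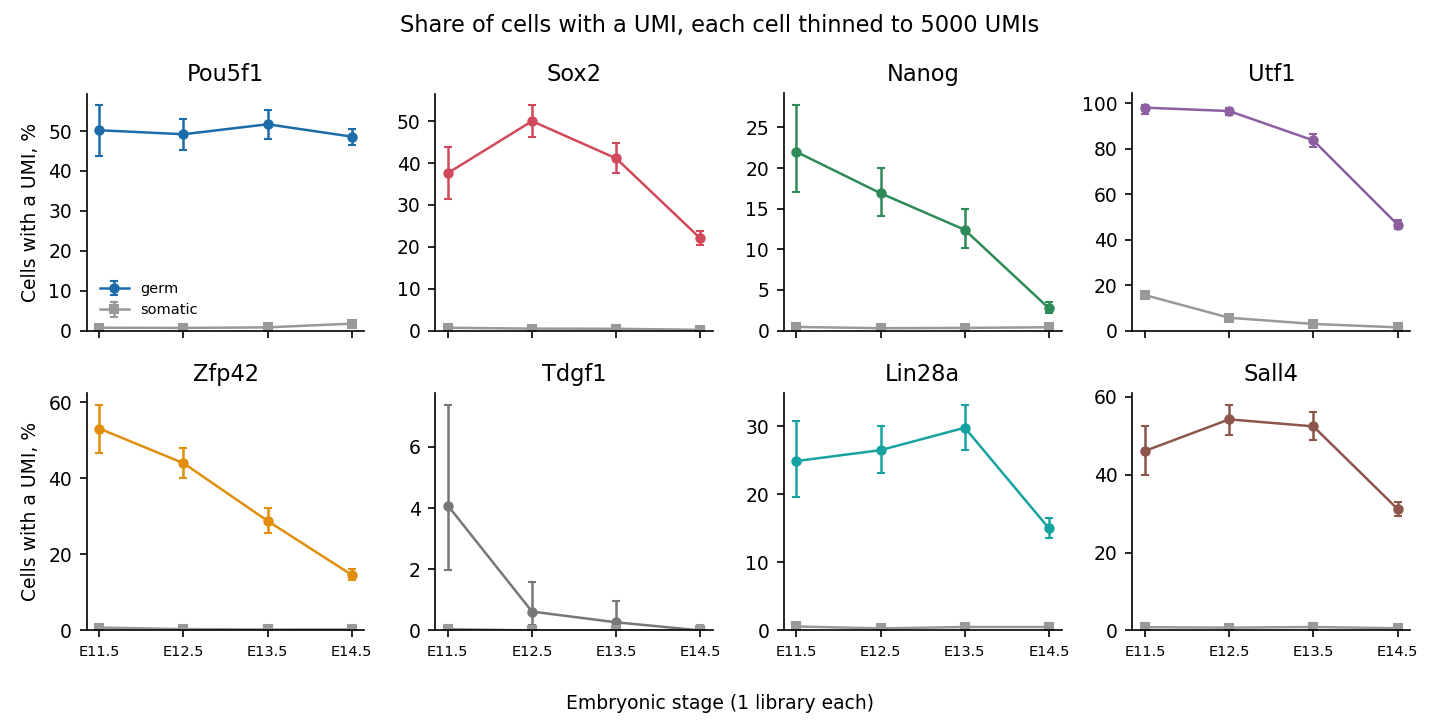
Share of cells (%) with a UMI of each member at the 4 stages, with each cell thinned to 5000 UMIs and exact Clopper-Pearson 95% intervals; coloured circles are germ cells and grey squares are somatic cells. The Pou5f1 share stays near 50.2% to 48.6%, the Nanog share goes from 22.0% to 2.74%, and only Utf1 has a somatic share above 2% at E11.5. The vertical axes differ between panels and start at 0.

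A thinned germ cell held 3.36, 3.38, 3.00 and 1.81 of the 8 members on average. Cells with none of them made up 0.408%, 0.923%, 3.17% and 20.7%, and cells with at least 4 made up 44.9%, 46.3%, 34.7% and 12.3%. At E11.5 the intervals of the cells with and without Pou5f1 (123 and 122 cells) overlapped for each of the other 7 members. Sox2 had a UMI in 34.1% (25.8 to 43.2) of cells with Pou5f1 and in 41.0% (32.2 to 50.3) of cells without it. At E13.5 (391 and 365 cells) Utf1 was apart, at 88% (84.3 to 91) with Pou5f1 and 78.9% (74.4 to 83) without it. At E14.5, cells with Pou5f1 held 5 of the others in a larger share, with intervals apart. The E14.5 groups were larger, at 1171 and 1239 cells, so their intervals were narrower. Sox2 was found in 27.8% of cells with Pou5f1 and in 16.5% of cells without it. The shares were 59.3% and 34.6% for Utf1 and 38.5% and 24.3% for Sall4, while for Zfp42 they were 16.1% (14.1 to 18.4) and 13.2% (11.3 to 15.2), with intervals that overlap. These cells all come from 1 library, and the shares describe that library.

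The order in which the members went down was read within the E14.5 library, where cells with and without Stra8 lie side by side. Germ cells were binned by Stra8 UMIs per 10000 UMIs of the cell, and a member counted as halved in the first bin from which it stayed at or below 50% of its level in the cells without Stra8. Nanog and Zfp42 were halved at 2 to 5 Stra8 UMIs, Utf1 at 5 to 10, Pou5f1 and Sall4 at 10 to 20, and Sox2 and Lin28a only above 20. Over the 6 bins of 120, 214, 334, 628, 895 and 219 cells, Nanog went through 30.8, 22.9, 9.41, 3.83, 0.741 and 0.335 CPM, the last of which is 1 UMI. Utf1 went through 490, 440, 256, 169, 101 and 64.4 CPM. Both were lower in each bin than in the one before. Pou5f1 went through 323, 281, 221, 167, 116 and 79.2 CPM, so that the cells with most Stra8 kept 24.5% (21.1 to 28.4) of its starting level. The Stra8 bins mix cells that differ in Sycp3. Over 5 Sycp3 UMIs per 10000 were held by 44 cells with up to 5 Stra8 UMIs and by 138 with 5 to 10. Over the rising Sycp3 bins of at least 20 cells, Stra8 stood at 331, 633, 1259, 1508 and 1265 CPM. This order therefore follows Stra8 level and need not be an order in time.

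Sox2 went through 84.6, 96.5, 64.5, 54.3, 46.2 and 30.2 CPM and Lin28a through 48.9, 47.6, 39.8, 35.3, 29.6 and 17.4 CPM. Each ended at 35.7% of its first bin, and neither was below 97.4% of it before the bin at 2 to 5. Zfp42 had another shape, at 79.7, 61.0, 39.5, 30.5, 27.4 and 27.2 CPM. It was halved early, at 49.5% (40.9 to 60.0), and then stayed near a constant level of 34.4% and 34.1% in the last bins. Its place was close to the limit: without the cells that held a Y-linked UMI it was halved 1 bin later, at 5 to 10, and the other members kept their bins. Utf1 at 2 to 5, with 52.4% (48.6 to 56.5), and Pou5f1 at 5 to 10, with 51.7% (47.5 to 56.3), also lay on the limit. With a limit of 70% in place of 50%, Pou5f1, Nanog, Utf1 and Zfp42 shared the bin at 2 to 5, Sox2 and Sall4 that at 5 to 10, and Lin28a stood at 10 to 20. The median cell held 19345 UMIs in the first bin and 13238 in the last.

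The cells without Stra8 at E14.5 carried more somatic RNA than the other bins. A list of 28 somatic markers summed to 1026 CPM there, against 170 to 375 CPM in the later bins, and Xist stood at 529 CPM against 30.5 to 170 CPM. In the same bin 74.2% of the cells fell in the germ clusters of an unsupervised clustering, against 90.4% to 100% in the others. When only germ cells in germ clusters were used, the first bin held 89 cells with 201 CPM of these markers. Utf1 was then halved at 2 to 5, Pou5f1 and Sall4 at 5 to 10 and Sox2 at 10 to 20, while Nanog, Zfp42 and Lin28a kept their bins. Nanog and Zfp42 were in the earliest bin and Lin28a in the last with either set of cells.

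**Figure D3:**
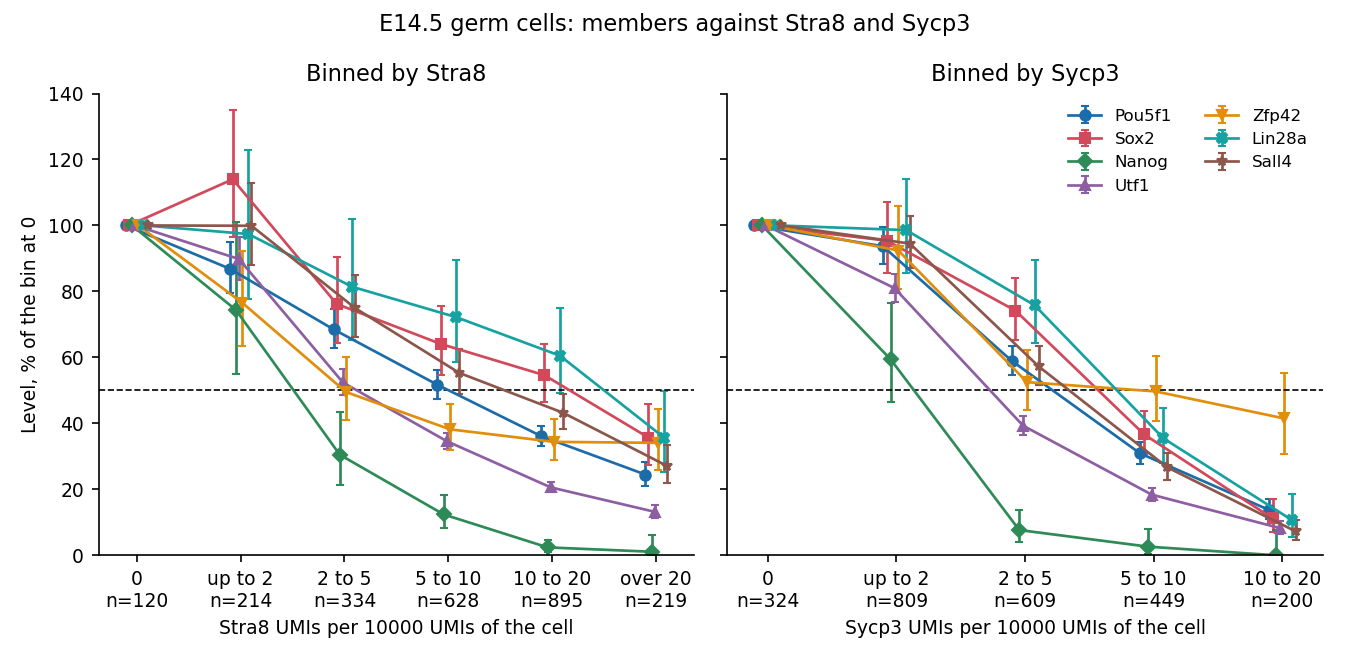
Level of 7 members in E14.5 germ cells, in % of the bin at 0, against Stra8 (left) and Sycp3 (right) UMIs per 10000 UMIs of the cell, with 95% counting intervals; n is the number of cells and the dashed line is 50%. Nanog lies lowest in every bin after the first on both axes, and Zfp42 levels off at 41.5% in the last Sycp3 bin. Tdgf1 had 0 UMIs and is left out.

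At E13.5, with fewer cells carrying Stra8, the early part of the order appeared again. Nanog stood at 36.7, 25.5, 14 and 6.73 CPM over the first 4 bins (371, 197, 111 and 58 cells) and was halved at 2 to 5. Zfp42, at 90.0, 64.7, 39.7 and 37.4 CPM, was halved in the same bin, and Utf1, at 602, 484, 317 and 227 CPM, at 5 to 10. These are the bins the 3 genes had at E14.5. Pou5f1, Sox2 and Sall4 were at 55.0%, 54.6% and 57.2% in the last bin with at least 20 cells and had not halved. Lin28a was at 109% (86.8 to 135) there.

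Against Sycp3, whose largest step came between E13.5 and E14.5 (log2 ratio 2.95), the members came closer together. In the E14.5 bins of 324, 809, 609, 449 and 200 cells, Nanog went through 17.9, 10.7, 1.37, 0.473 and 0 CPM and Utf1 through 343, 278, 135, 63.0 and 28.2 CPM. Both were halved at 2 to 5 Sycp3 UMIs. The other 5 were halved at 5 to 10. Pou5f1 kept 13.8% (11 to 17) of its level at 10 to 20, Sox2 11.2%, Lin28a 10.7% and Sall4 7.26%, whereas Zfp42 kept 41.5% (30.6 to 55.4). The place of Zfp42 ran from 2 to 5, with germ clusters only, to 10 to 20, with called doublets kept, and the others kept their bins in both. At E13.5, 2 Sycp3 bins had at least 20 cells, and there the 7 members kept between 82.6% (Nanog) and 99.9% (Lin28a) in cells with up to 2 Sycp3 UMIs.

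Sorting E14.5 germ cells by the sum of the 18 meiosis genes into 10 equal groups of 241 cells gave a finer scale. Relative to the first 2 groups, Nanog was halved in group 3, Utf1 in group 4, Zfp42 in group 6, Pou5f1 and Sall4 in group 7, Sox2 in group 8 and Lin28a in group 9. Pou5f1 went from 297 CPM in the first group to 26.2 in the last, Sall4 from 153 to 5.10 and Lin28a from 48.4 to 2.55. Zfp42 went from 71.1 CPM to 31.0 in group 4 and was still at 25.5 in group 10, or 42.0% of its start. With germ clusters only, Zfp42 was halved in group 4, Pou5f1 in group 6 and Lin28a in group 8, level with Sox2, and the others kept their group. With called doublets kept, Sox2 was halved in group 9, also level with Lin28a. At a limit of 70%, Nanog, Utf1 and Zfp42 shared group 3, and Sox2 and Lin28a shared group 7.

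**Figure D4:**
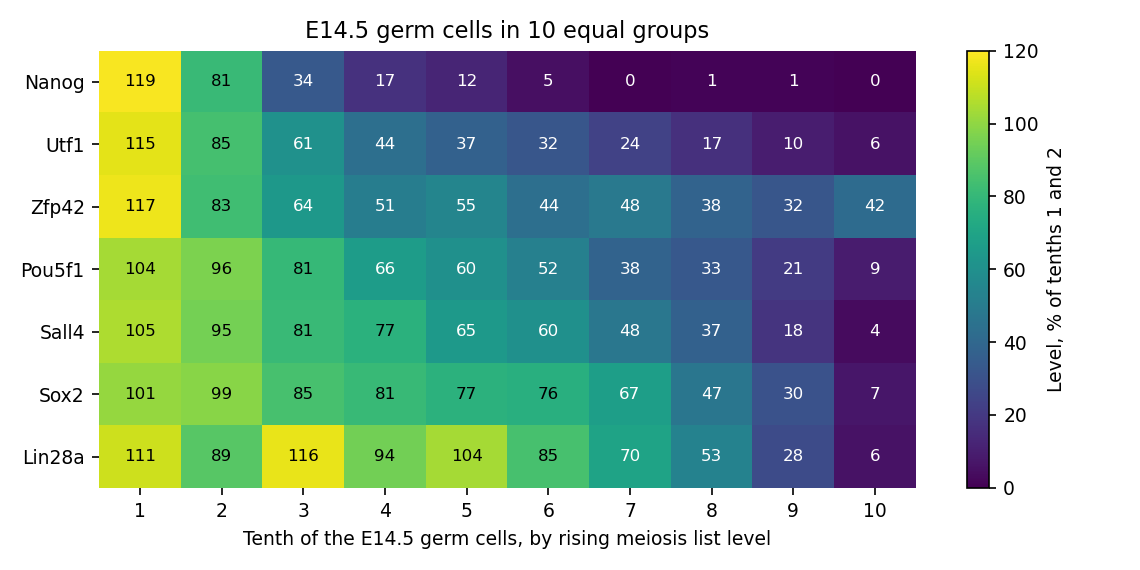
Level of 7 members in 10 equal groups of E14.5 germ cells sorted by the summed meiosis list, as % of the mean of groups 1 and 2; rows are ordered by the group in which the member was halved. Nanog is halved in group 3 and Lin28a in group 9, and Zfp42 keeps 42% in group 10.

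The cells were also binned by both axis genes at once, so that 1 varied within a range of the other. Among E14.5 germ cells with up to 2 Sycp3 UMIs per 10000, Nanog stood at 19.3, 5.98 and 1.61 CPM in cells with up to 5, with 5 to 10 and with over 10 Stra8 UMIs (579, 323 and 231 cells). Utf1 stood at 383, 214 and 141 CPM in the same cells. Pou5f1 stood at 272, 204 and 161 CPM there and Sall4 at 144, 110 and 102 CPM. Sox2 stood at 82.3, 64.6 and 61.6 CPM and Zfp42 at 56.5, 36.2 and 35.4 CPM. Lin28a stood at 45.2, 45.0 and 43.4 CPM, so it hardly moved with Stra8 while Sycp3 was low. Among the cells with over 10 Stra8 UMIs, Lin28a stood at 43.4, 32.8 and 13.7 CPM as Sycp3 rose from up to 2, to 2 to 5, to over 5 (231, 397 and 486 cells). Sall4 in these cells went through 102, 73.4 and 30.5 CPM, and Sox2 through 61.6, 55.7 and 22.0. Zfp42 was at 35.4, 26.5 and 23.8 CPM, the flattest of these. Utf1 went through 141, 114 and 51 CPM in these cells and Pou5f1 through 161, 127 and 65.8 CPM. Both were thus lower along either axis. Nanog had only 6, 2 and 3 UMIs there.

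The germ cells that had no Stra8 UMI allow the stages to be set side by side without that axis. They were all of the 245 germ cells at E11.5 but only 120 of 2410 at E14.5, so unlike parts of the libraries are compared. In the cells without Stra8, Pou5f1 stood at 140, 147, 184 and 323 CPM over the 4 stages (245, 630, 371 and 120 cells). At E14.5 in germ clusters only, it stood at 394 CPM. Nanog stood at 45.6, 37.8, 36.7 and 30.8 CPM in these cells, and at 38.0 CPM at E14.5 in germ clusters only. Sall4 was at 129, 170, 173 and 154 CPM, and Lin28a at 55.6, 58.4, 66.1 and 48.9 CPM. Utf1 was at 759, 685, 602 and 490 CPM, Zfp42 at 135, 140, 90 and 79.7 CPM. Sox2 was at 112, 125, 111 and 84.6 CPM. At E14.5 in germ clusters only, Utf1 stood at 596, Zfp42 at 98.7, Sox2 at 105 and Lin28a at 60.2 CPM. For Pou5f1 the level without Stra8 was thus higher at E14.5 than at E11.5 by more than counting error. The median cell of these groups held 31268 UMIs at E11.5 and 19345 at E14.5, and the part of depth in this was not tested.

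Across 16 groups of germ cells (4 stages, each split into 4 equal parts by the meiosis list), the members' levels can be described by their correlations, over groups that share libraries and depth. Sox2 and Utf1 had r = 0.97, Nanog and Utf1 0.97, Lin28a and Sall4 0.93, and Pou5f1 and Nanog 0.39. Among 4916 genes with a mean of at least 20 CPM, the gene most like Nanog was Etv5 (r = 0.99), the gene most like Zfp42 was Tbrg1 (0.99), and those most like Sox2 were Tfe3 and C1qbp (both 0.98). Utf1 was closest to Shmt1 and Pmm1 (both 1.00), Sall4 to Porcn (0.98) and Lin28a to Fdft1 (0.97). Etv5 ran from 119 to 5.39 CPM over the 16 groups. Within E14.5, Pou5f1 stood at 278, 190, 125 and 52.3 CPM over these parts, against 162, 129, 133 and 137 CPM at E11.5. Other members fell over the E14.5 parts too, such as Sox2 from 80.7 to 19.7 CPM and Sall4 from 140 to 24.1 CPM. Pou5f1 differed in that its first E14.5 part lay above all its E11.5 parts, which held for no other member.

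In somatic cells 1 member stood out, Utf1 at E11.5. Its somatic level was 58.2 (56.4 to 60.1), 16.9, 6.58 and 3.11 (2.49 to 3.83) CPM over the 4 stages, a log2 ratio of E14.5 to E11.5 of -4.23 (-4.55 to -3.92). By the size rule Sox2 and Zfp42 were also called lower in somatic cells, 3 members of the 7 tested against 5.54% of all genes, at 2.10 and 0.565 CPM and at 2.18 and 0.565 CPM. The rule for somatic cells let in 35, 17, 3 and 0 cells that clustered with germ cells, and these held 15.1%, 27.2%, 11% and 0% of the somatic Utf1 UMIs. Without them Utf1 stood at 50.1, 12.4, 5.87 and 3.11 CPM. Sox2 then stood at 0.578, 0.562, 0.808 and 0.565 CPM and Zfp42 at 0.487, 0.435, 0.446 and 0.565 CPM, with overlapping intervals, so the lower level of those members in somatic cells was seen only with the germ-clustered cells included.

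Somatic Utf1 at E11.5 was present in cells without any germ marker, where Pou5f1 was near 0. Cells with 0 germ markers held Utf1 at 49.1 CPM and Pou5f1 at 0.844 CPM, and cells with 1 marker held them at 53.1 and 1.18 CPM. The 120 cells with 2 markers held them at 282 and 54.5 CPM. In cells with 0 germ markers the somatic level was 6.47% of the germ cell level for Utf1, and 0.344% to 1.86% for the other 6 members with enough UMIs. Of 8 other germ cell genes measured the same way, Nanos3 (16%) and Tdrd5 (17.9%) were above Utf1 and the rest were below it. Over the stages the value for Utf1 was 6.47%, 1.67%, 1.12% and 1.39%. At E13.5 and E14.5 it lay within the range of the other members, 0.687% to 2.64% and 1.04% to 8.33%.

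Among somatic classes, Utf1 lay mostly in supporting-like cells, named for the pre-granulosa lineage that surrounds germ cells. Wnt4, Fst, Runx1, Kitl and Wnt6 were raised in all clusters of this class. Foxl2, from the same marker list, was raised in none of them. Irx3 and Gng13 were not raised in cluster 1, the main cluster at E11.5, and cluster 16 had Pax8 among its leading genes. Supporting-like cells held it at 92.7 (89.5 to 96.0), 20.2, 8.17 and 3.23 (2.02 to 4.89) CPM, and the other somatic cells outside germ clusters at 4.93 (4.19 to 5.76), 4.62, 3.98 and 3.07 CPM. The intervals did not overlap at the first 3 stages and overlapped at E14.5. At E11.5 the supporting-like cells were 52.6% of somatic cells and held 80.9% of the somatic Utf1 UMIs. With cells thinned to 5000 UMIs, 26.6% (24.8 to 28.4) of supporting-like cells at E11.5 had a Utf1 UMI, against 2.40% (1.79 to 3.16) of the other somatic cells, with median depths of 13680 and 14009 UMIs before thinning. At E14.5 these shares were 0.997% (0.367 to 2.16) and 1.95% (1.33 to 2.76).

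**Figure D5:**
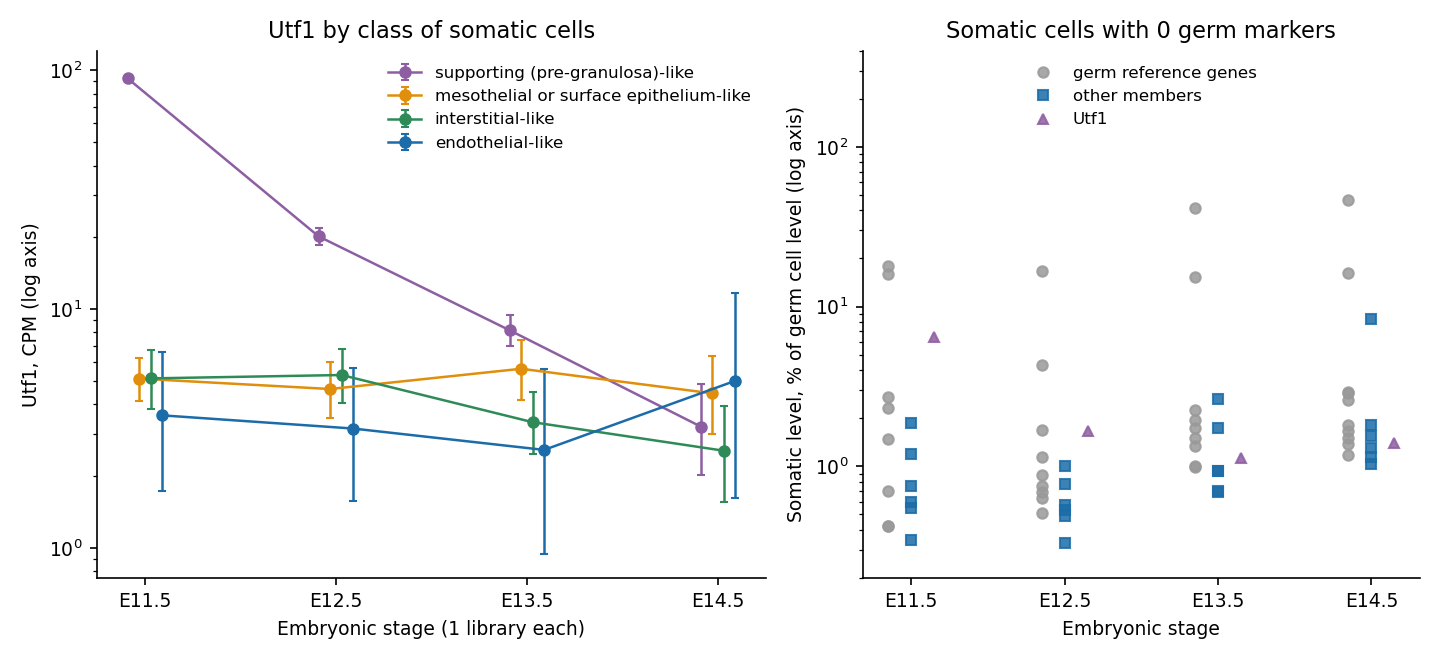
Left, Utf1 level (CPM, log axis) in 4 classes of somatic cells at the 4 stages, with exact Poisson 95% intervals. Right, level in somatic cells with 0 germ markers as % of the germ cell level (log axis) for Utf1, the other members and a list of germ reference genes, with each point a gene. Supporting-like cells go from 92.7 to 3.23 CPM and meet the other classes at E14.5, and Utf1 at E11.5 lies at 6.47%, above the other members.

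The supporting-like class was made of different clusters at each stage, so this is not a change within a fixed cluster. Cluster 1 held 1974 of its 2350 cells at E11.5, with Utf1 at 103 CPM, and 99 cells at E12.5, with 61.4 CPM. In cluster 9, present at all stages with 27, 516, 473 and 54 cells, Utf1 stood at 124, 38.2, 11.4 and 2.81 CPM, and in cluster 2, with 44, 1334, 519 and 48 cells, at 29.9, 12.9, 9.45 and 2.28 CPM. Utf1 read lower at each later stage in both clusters, but the E14.5 values come from 54 and 48 cells and very few UMIs. The last step in each cluster is therefore near the floor. Pou5f1, in the same supporting-like cells, went the other way at 0.768, 0.8, 1.56 and 2.79 CPM, levels that the other somatic cells shared, at 0.910, 0.866, 1.35 and 3.11 CPM. The other 5 members that had enough UMIs ranged from 0.255 to 1.76 CPM in these cells over the 4 stages.

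Utf1 is a short gene of 1324 bases with 2 exons on chromosome 7, at 139943789 to 139945112 on the plus strand (GRCm38). Its upstream neighbour on the same strand, Kndc1, ends 2.25 kb before it. Kndc1 stood at 1.68, 0.436, 0.283 and 0.147 CPM in supporting-like cells, from only 57, 12, 6 and 1 UMIs. Adam8, a metalloprotease gene on the opposite strand with its near end 33.8 kb from Utf1, stood at 145, 48.9, 36.4 and 34.6 CPM in the same cells and at 3.65 CPM or less in germ cells. Gm2044, a long noncoding RNA gene 11.9 kb away, went the other way in supporting-like cells, at 46.2, 61.8, 132 and 176 CPM. The neighbours were chosen by position. A further one, 6430531B16Rik, stood at 3.31, 2.91, 3.16 and 3.52 CPM in supporting-like cells, with overlapping intervals. Kndc1 and Adam8 were both below their E11.5 level at the later stages, as Utf1 was, and the last step of Adam8 lay within counting error (33.8 to 39 and 30.4 to 39.4).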

How the data were processed

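The deposited table of the authors holds natural log values: the UMIs of a gene were divided by the cell's total, scaled to 10000, raised by 1 and logged, as read from the values. Of 69792436 values above 0, 100% were whole multiples of the value of 1 UMI at a relative tolerance of 1e-06, which gave back the UMI counts. Reads were processed with Cell Ranger 2.2.0 and genome build mm10, per the submitters' processing notes; further filters are not given in the sources used here. The plan had allowed for either unit.

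The prefix of each cell name gave its stage. The libraries held 4916, 4842, 4842 and 4787 barcodes and 80377418, 78223391, 69458291 and 72506090 UMIs. Cells over 20% mitochondrial UMIs and doublets called per library by Scrublet (scanpy 1.11.5, expected rate 0.06), 120, 105, 95 and 94 cells, were left out. UMIs were summed by class and stage (numpy 2.4.6, scipy 1.17.1), with exact Poisson intervals for levels, the exact binomial split for ratios and Clopper-Pearson intervals for shares. The size rule was run on simulated Poisson counts, which hold no spread between libraries and so cannot show how the rule fares under it. Floors were 3 counts. Bins needed 20 cells, and a member needed 20 UMIs in the first bin. Clusters came from the Leiden algorithm (leidenalg 0.10.2; 2000 variable genes without the members and lists, 30 components, 15 neighbours, resolution 1), and were named where at least 3 fixed markers were raised and the leading 10 genes did not favour another type. The form of that naming rule follows earlier work on these data. All members were named. Other genes came from a network, a meiosis and a germ reference list, from the best correlations with members (1 such result is not reported here), and from the position next to Utf1. Dppa5a, which helps to define germ cells, was left out of the network list. The genes singled out within the network list were chosen after their values were seen. The members and lists were chosen with earlier results of these data known. Alternatives changed 1 choice at a time. Gene positions are from GENCODE (GRCm38).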

Additional observations from a re-analysis of the deposited data

Results flagged for a closer look

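The E14.5 library, from gonads labelled XX, held 1655 UMIs of 4 Y-linked genes (Ddx3y, Eif2s3y, Kdm5d and Uty), a signal outside the members, where the 3 earlier libraries held 0. They occurred in 435 germ cells and 481 somatic cells, and stood at 17.1 to 21.8 CPM in the 6 Stra8 bins of the germ cells. Leaving out these cells kept the count of members called lower at 3, and the part of these UMIs in the members' values was not tested further.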

How the results depend on the processing

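No paired analysis was possible because each stage is 1 library and no test was made. Of the values answering a comparison, 41 stayed within the set limits and 5 moved. Of the single members' log2 ratios and shares, 52 stayed within counting error and 52 moved. The latter include shares at 2000 UMIs or without thinning, which follow depth by design, and means over cells, which are another measure. That count therefore says little about how stable the values are. In the order of loss it was the number of halved members that stayed, not each place: at E14.5 a limit of 0.7 left 3 of the 8 members in their Stra8 bin, 4 in their Sycp3 bin and 2 in their meiosis group, and germ clusters only left 4, 7 and 5, Tdgf1 counted as unplaced throughout. At a ratio of at least 4, 1 member (Nanog) was called lower in germ cells in place of 3. With a limit of 0.7 in place of 0.5, 6 members in place of 3 counted as lost against Stra8 at E13.5. Somatic Utf1 at E11.5, 58.2 CPM, was 49.1 CPM in cells with 0 germ markers, 56.3 CPM with erythroid cells kept and 50.1 CPM outside germ clusters. Over 9 alternatives the log2 ratio of E14.5 to E11.5 ranged from -2.82 to -1.69 for Nanog, from -3.07 to -1.77 for Utf1, from -2.28 to -1.71 for Zfp42, from -1.59 to -0.82 for Sox2, from -1.08 to -0.51 for Lin28a and from -1.26 to -0.32 for Sall4. For Pou5f1 it ran from -0.46 to 0.44, a change of sign that came from the mean over cells of log2(CPM + 10). The median-of-ratios scale moved the median of all genes from 0.45 to 0.30. Germ cells with at least 2 markers, the median-of-ratios scale, and no minimum of UMIs each gave 4 members called lower. Without cells holding a Y-linked UMI, Pou5f1 was halved in group 6 and Lin28a in group 8 of the meiosis order, and the other 5 kept their group. The alternatives by Y-linked UMI and by germ cluster were chosen after seeing the data. With 1 library a stage, the spread between embryos was not measured. Tdgf1, with 46 UMIs or fewer, could not be placed in the order.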
